A study of Mus musculus with 9 samples.

Results

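The baseline described here is the transcriptome of intestinal epithelial cells from control mouse pups on the day of birth (postnatal day 0, P0). It comprised the 3 arrays titled Control, of 9 in the series, chosen by that title alone. The series asks what loss of transferrin receptor 1 (Tfr1, encoded by Tfrc), which brings transferrin-bound iron into cells, does to the newborn gut epithelium. Control pups were Tfr1fl/fl, called wildtype in the labels. Knockout pups were Tfr1 IEC-KO, with 3 arrays, and rescue pups were Tfr1 IEC-KO;ROSA26 Tfr1R654A/+, with 3 arrays. All pups were untreated. No Cre driver is named in the labels, and neither sex nor the number of pups behind an array is stated, so the spread between arrays may be partly technical. Cells of small intestine and proximal colon were released together, with 2 mM EDTA for 30 min and a 70 µm mesh, and no sort by a surface marker is named. The values are therefore averages over gut regions and over all cells that came loose, and in such bulk RNA fewer cells of a type and less RNA per cell cannot be told apart.

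The epithelium of the newborn gut lives on milk. Enterocytes absorb milk fat and send it out as chylomicrons, lipid particles coated with apolipoproteins. They also take up whole milk proteins by endocytosis and digest them in lysosomes, a mode that ends at weaning. Lactase at the brush border splits milk sugar. Crypts, Paneth cells and the adult division of labour along the gut form mostly after birth in the mouse.

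Each array gave log2 values for 45101 probe sets, sets of short probes designed to read 1 transcript or a few related ones. Of these, 34945 carried a single gene symbol and were not array controls, and the brightest probe set by the mean of the 3 control arrays stood for each of 18193 genes. Means are given ± SD with n = 3 on the log2 scale, so a step of 1 is a doubling of signal. Brightness depends on the probes as well as on the transcript, so the order of genes is an order of signals and no test was made between genes. Arrays have no read depth, and here their number limits the precision. For reference, 75 olfactory, vomeronasal, taste and trace amine receptor genes, which gut epithelium is not known to use, had a median of 4.20 and lay between 2.30 and 6.79. A gene at or below their 95th percentile, 6.18, is called near background, which does not show that its transcript was absent. The top 10% of genes, from 10.24 upwards, are called high, and genes between are called moderate. By these limits 1820 genes were high, 9113 (50.1%) were moderate and 7260 (39.9%) were near background, with a median over all genes of 6.85.

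**Figure D1:**
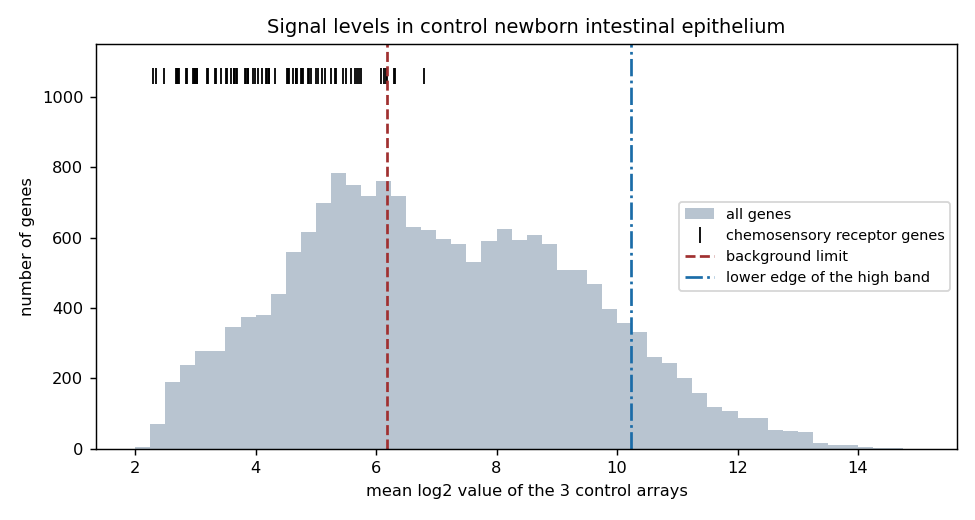
Histogram of the mean log2 value of the 3 control arrays (x axis) against the number of genes (y axis), with ticks for the 75 chemosensory receptor genes and lines at the background limit and at the lower edge of the high band. The receptor genes lie between 2.30 and 6.79, and the genes of the high band extend to 14.54.

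The background limit was set against a separate list of genes of testis, lens, retina, pituitary, mammary gland, hair and muscle. Of its 38 measured members, 29 were near background and 9 lay above the limit, the brightest being Smcp, a sperm mitochondrial protein, at 10.01 ± 0.34, and Oxt, the oxytocin precursor, at 8.90 ± 0.037. Opn1mw (6.84), Pomc (6.70) and Prm1 (6.62) followed, and Tnp1 (3.08) and Fshb (2.84) were the dimmest. A single moderate value is thus weak evidence of a transcript. The identity of the preparation was read from epithelial genes: Epcam, the epithelial adhesion molecule, read 12.92, 12.91 and 13.02 in control replicates 1, 2 and 3, and Vil1, the microvillus protein villin, read 12.35, 12.25 and 12.37. All 6 values lie far above the background limit. Xist, transcribed from the inactive X chromosome of females, was high at 12.31, 12.14 and 12.10, and the Y-linked Eif2s3y was near background at 2.75, 2.88 and 2.69.

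The control arrays lay close together. Across all genes the correlation between any 2 of them was 0.994 to 0.996 (Pearson) and 0.994 to 0.996 (Spearman), a description across genes, which are not independent. The median SD of a gene above background was 0.108, and 95% of such genes had an SD below 0.313. Each array's own top 25 genes shared 23 to 24 members with the top 25 by the mean of the control arrays. For the top 100 the shared members numbered 92 to 95. That mean includes the array itself, so this overlap does not compare separate arrays.

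The brightest genes of the newborn epithelium were those of fat transport. Apoa1, the main protein of high-density lipoprotein and a chylomicron protein, stood first at 14.54, 14.52 and 14.55. Apoa4, a chylomicron apolipoprotein induced by fat, followed at 14.35, 14.33 and 14.32. Fabp2, the intestinal fatty acid binding protein, read 14.31, 14.32 and 14.30, and Fabp1, the liver-type form, read 14.20, 14.19 and 14.22. The lowest of these 12 values was 14.19. Ribosomal protein genes left aside, the next were Tmsb10, an actin-binding thymosin, at 14.13 ± 0.023, the respiratory chain subunit Cox6a1 at 14.06 ± 0.053, the selenium carrier Selenop at 14.00 ± 0.015 and Tpt1 at 14.00 ± 0.029. Some probe sets, with the suffixes _s_at, _x_at and _a_at, can read several related transcripts, either of the same gene or of other genes. Without them Tmsb10 read 5.48 and Tpt1 4.66, both near background. P4hb, protein disulfide isomerase and a subunit of the microsomal triglyceride transfer complex, read 13.91 ± 0.014. Apoc3 at 13.90 ± 0.059, Apoc2 at 13.68 ± 0.024 and Apob at 13.67 ± 0.046 complete the apolipoproteins among the 25 brightest genes outside the ribosomal proteins. Acsl5 at 13.85 ± 0.018 activates fatty acids and Hadh at 13.84 ± 0.026 oxidises them.

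Other members of the brightest 25 served metals, protein breakdown and the cell body. Ttr, the thyroid hormone and retinol carrier, was at 13.87 ± 0.095. Mt1, a metallothionein that binds zinc and copper, was at 13.85 ± 0.051 and at 7.95 without probe sets that can read related transcripts, and Fth1, the heavy chain of the iron store ferritin, at 13.76 ± 0.093. Ctsl, a lysosomal protease, was at 13.64 ± 0.084. Mamdc4, the endotubin of apical endosomes in suckling enterocytes, was at 13.69 ± 0.16, and Lgals4, a galectin of the brush border, at 13.57 ± 0.055. The rest were Uqcrb (13.88), Actb (13.81), Eef1a1 (13.81), Cox5b (13.63, and 7.09 without such probe sets) and Gpx3 (13.54). Among the 100 brightest genes of any kind, grouped by symbol, 14 had symbols of ribosomal proteins and 11 of the respiratory chain or ATP synthase. A further 5 had symbols of apolipoproteins, 4 of cathepsins and 4 of solute carriers.

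**Figure D2:**
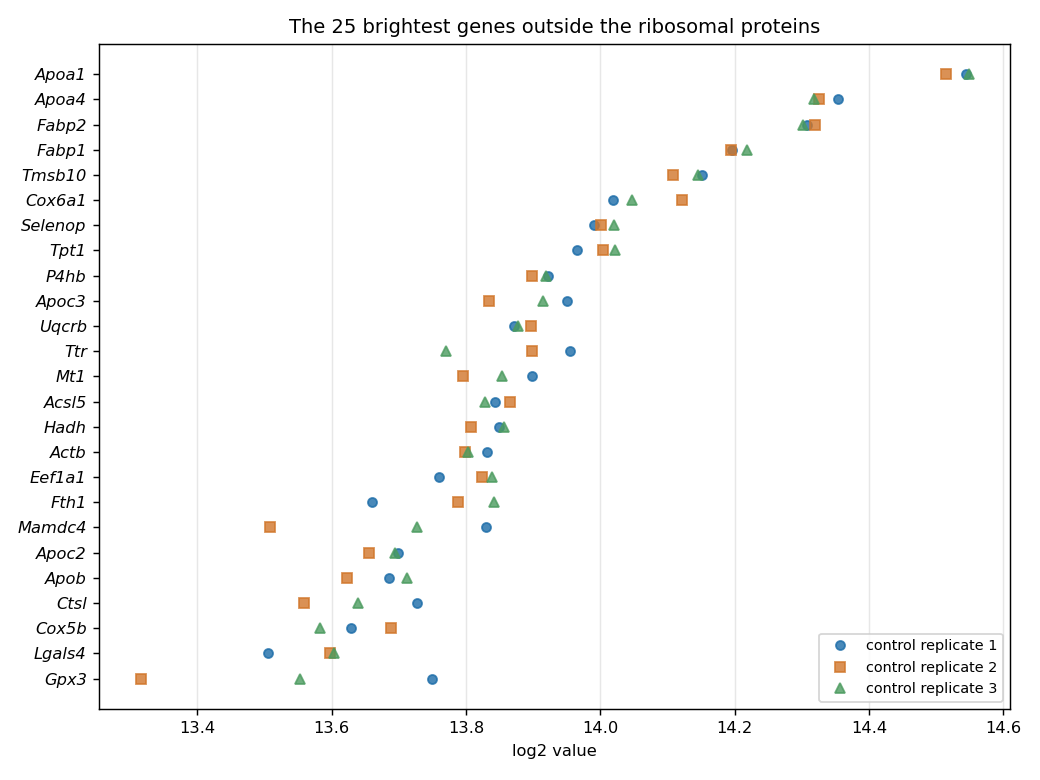
Log2 values (x axis, which does not start at 0) of the 25 brightest genes outside the ribosomal proteins (y axis), with a symbol for each of the 3 control arrays. Apoa1, Apoa4, Fabp2 and Fabp1 lead, and the 3 arrays nearly coincide for most genes.

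The promoters of the 4 leading genes and of lactase are shown because these genes lead the order of signals or digest milk sugar, and can be compared as sequence. Each covers 250 bases before to 50 after the RefSeq start on GRCm38.p6, read 5′ to 3′ on the gene's strand. Capitals mark a match, on either strand, to any of 3 motifs: TATAAA (the TATA box), CAAAGTCCA (bound by HNF4) and GCAATAAA (bound by CDX). A match is a description, and a missing match says only that these letters are not in the window.
Apoa1, chr9:46228380-46228679, plus strand: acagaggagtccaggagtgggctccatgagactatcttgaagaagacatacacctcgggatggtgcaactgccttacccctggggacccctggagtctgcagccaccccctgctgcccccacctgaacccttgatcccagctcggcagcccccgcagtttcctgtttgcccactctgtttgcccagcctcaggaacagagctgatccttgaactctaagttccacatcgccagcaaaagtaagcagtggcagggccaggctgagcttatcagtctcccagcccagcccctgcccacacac
Apoa4, chr9:46240594-46240893, plus strand: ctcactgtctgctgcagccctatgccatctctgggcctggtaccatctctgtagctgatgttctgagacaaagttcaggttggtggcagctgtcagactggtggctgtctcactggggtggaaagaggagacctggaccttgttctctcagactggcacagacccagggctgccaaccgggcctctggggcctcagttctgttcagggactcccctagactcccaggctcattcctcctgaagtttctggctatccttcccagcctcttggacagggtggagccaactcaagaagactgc
Fabp2, chr3:122894822-122895121, plus strand: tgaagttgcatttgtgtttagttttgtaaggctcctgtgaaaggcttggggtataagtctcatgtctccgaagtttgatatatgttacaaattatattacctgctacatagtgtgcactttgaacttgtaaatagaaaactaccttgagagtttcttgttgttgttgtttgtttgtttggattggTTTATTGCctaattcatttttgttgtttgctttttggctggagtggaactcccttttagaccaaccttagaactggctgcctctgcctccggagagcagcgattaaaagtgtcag
Fabp1, chr6:71199629-71199928, plus strand: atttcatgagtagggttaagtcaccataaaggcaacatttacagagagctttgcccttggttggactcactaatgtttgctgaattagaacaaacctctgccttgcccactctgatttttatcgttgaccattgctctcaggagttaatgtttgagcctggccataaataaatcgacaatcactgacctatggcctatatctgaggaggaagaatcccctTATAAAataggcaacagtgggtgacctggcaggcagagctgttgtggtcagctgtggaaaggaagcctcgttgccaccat
Lct, chr1:128328269-128328568, minus strand: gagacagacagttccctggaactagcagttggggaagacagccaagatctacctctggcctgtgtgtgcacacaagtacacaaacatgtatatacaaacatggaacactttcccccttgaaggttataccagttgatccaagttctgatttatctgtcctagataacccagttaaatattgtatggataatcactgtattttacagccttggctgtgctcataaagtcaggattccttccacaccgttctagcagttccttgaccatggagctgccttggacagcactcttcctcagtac
Fabp1 held a TATA box that began 30 bases before its start. Fabp2 held a CDX match on the opposite strand, 65 bases before its start. Apoa1, Apoa4 and Lct held none of the 3.

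A promoter was found for 14452 of the 18193 measured genes, 18109 promoters in all, and TATAAA occurred in 9.77% of them, CAAAGTCCA in 0.491% and GCAATAAA in 0.602%. The share was 8.72% for high genes, 7.34% for moderate genes and 13.5% for genes near background. In the list of lipid uptake and chylomicron assembly 10 of 30 promoters (33.3%) held it, in brush border hydrolases 7 of 28 (25%) and in peptide hormones 7 of 31 (22.6%). It was held by 8% of promoters in the list of suckling protein uptake and 4.35% in that of gluconeogenesis and fatty acid oxidation. Several promoters of 1 gene can overlap, and no test was made of these shares. Median GC content was 60.7% for high, 60.7% for moderate and 53.7% for near-background genes, with a median of 21, 20 and 7 CpG pairs per 300 bases.

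Genes were then read in 39 lists by role. They named 793 distinct symbols, of which 718 were measured and 208 were high. For all genes the shares are 10% high, 50.1% moderate and 39.9% near background, and the lists are set beside these as a description.

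**Figure D3:**
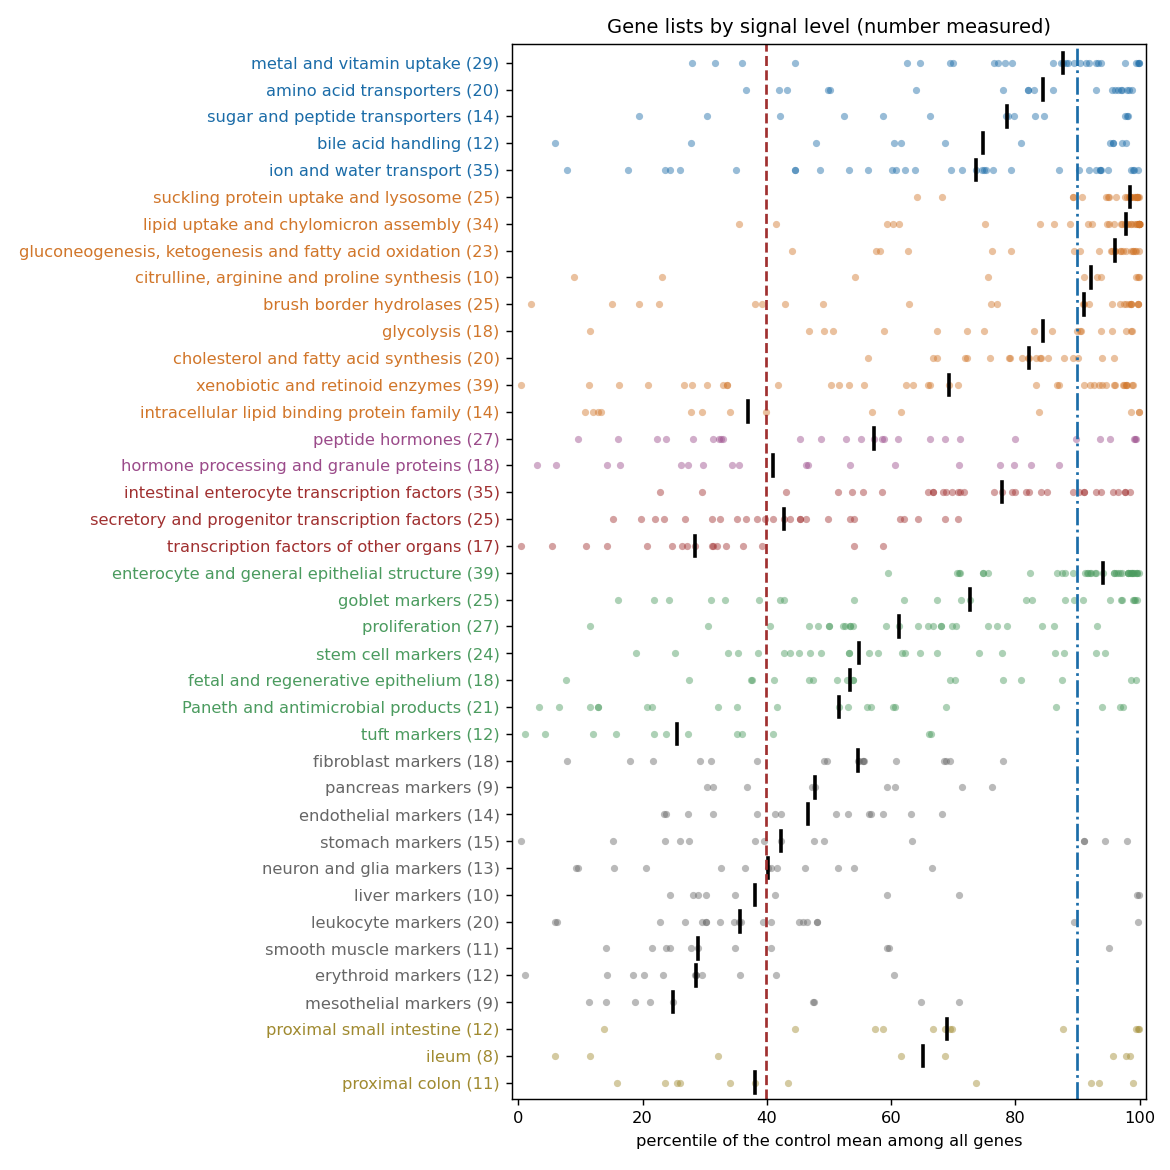
Percentile of the control mean among all genes (x axis) for each measured member (points) of 39 gene lists (y axis, number measured in brackets), with a bar at the list median, coloured by role. Lines mark the background limit and the high band. The lists of suckling protein uptake (median percentile 98.4) and of lipid uptake (97.8) sit at the right edge, and those of tuft (25.6) and mesothelial (24.9) markers at the left.

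For lipid uptake and chylomicron assembly, 25 of 34 measured members were high, 8 moderate and 1 near background. The pathway was bright from the first to the last step. Cd36, a fatty acid receptor, read 11.10 ± 0.19, and Slc27a4, a fatty acid transport protein, 11.25 ± 0.18. Re-esterification was represented by Mogat2 at 11.67 ± 0.056, Dgat1 at 12.11 ± 0.10, or 8.19 without probe sets that can read related transcripts, and Dgat2 at 13.04 ± 0.044. Mttp, which loads lipid onto Apob, read 13.15, 13.30 and 13.30, and Sar1b, which packs the finished particle for export, 12.55, 12.88 and 12.70. Every array placed both in the high band. The dimmest members were Abca1, a cholesterol exporter, at 6.28, and Apoa5, an apolipoprotein of liver, at 5.91. Npc1l1, the cholesterol importer, was high at 11.60 ± 0.16. Of the pair that returns sterols to the lumen, Abcg5 was high and Abcg8 moderate at 8.79 ± 0.23. The wider family of intracellular lipid binding proteins was divided, since 3 of 14 measured members were high, 3 moderate and 8 near background. Beside Fabp2 and Fabp1 only Rbp2, the intestinal retinol binding protein, was high, at 12.38 ± 0.023. Fabp5 read 9.55, the ileal Fabp6 7.76, and Crabp1 (4.26) and Fabp7 (4.13) were the dimmest.

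For suckling protein uptake and the lysosome, 21 of 25 measured members were high, 4 moderate and 0 near background. Cubn, the cubilin receptor, read 12.38, 12.08 and 12.36, and its membrane partner Amn 12.89, 12.68 and 12.90. Dab2, the adaptor that draws them into coated pits, read 11.10 ± 0.19. Fcgrt, the receptor that carries maternal IgG across the gut wall, was at 13.31, 13.13 and 13.17. Lysosomal proteases followed, with Ctsa at 13.17 ± 0.19, Ctsz at 13.17 ± 0.050 and Ctsb at 13.10 ± 0.10. Lamp1 (13.07), a lysosomal membrane protein, and the glycosidases Hexa (12.78), Glb1 (12.37) and Gusb (12.30) lay in the same range. The endocytic receptors Lrp2, or megalin, and Lrp1 were the 2 dimmest, at 8.26 and 7.97, still above background. Without probe sets that can read related transcripts, Dab2 read 9.61 and Ctsl 4.33.

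For sugar and peptide transporters, 3 of 14 measured members were high, 9 moderate and 2 near background. Slc5a1, which brings glucose and galactose in with sodium, read 11.98, 12.02 and 12.02, and Slc2a2, the basolateral glucose exit, 12.03, 12.14 and 12.04. Slc37a4, which carries glucose-6-phosphate into the endoplasmic reticulum, was at 11.88 ± 0.17. The fructose transporter Slc2a5 was moderate at 9.09 ± 0.29, and so was the dietary peptide transporter Slc15a1 at 9.19 ± 0.20, beside Slc15a2 at 9.48 ± 0.18. Slc2a1 read 9.61. The dimmest were Slc2a3 (5.59) and Slc5a4a (4.91).

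Amino acid transporters were bright as a list, as 9 of 20 measured members were high, 10 moderate and 1 near background. Slc7a9 and Slc3a1, the light and heavy chain of the apical carrier of cystine and basic amino acids, read 12.43 ± 0.12 and 11.63 ± 0.026. Slc6a19, the main apical carrier of neutral amino acids, was at 12.05, 11.91 and 12.01. Slc7a7 (11.31 ± 0.10) and Slc3a2 (11.69 ± 0.050) form the basolateral exit of basic amino acids. The taurine carrier Slc6a6 stood at 12.18 ± 0.15 and the creatine carrier Slc6a8 at 11.45 ± 0.18. Slc6a14 (6.30) was just above the background limit, and Slc7a15 (5.98) was below it.

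For ion and water transport, 11 of 35 measured members were high, 18 moderate and 6 near background. Slc9a3r1, a scaffold of brush border transporters, read 13.33 ± 0.057. Slc34a2, the phosphate carrier, was at 12.74, 12.54 and 12.54, and Slc26a3, the chloride-bicarbonate exchanger, at 12.45, 12.61 and 12.62. The sodium pump subunit Atp1b1 was at 12.37 ± 0.097, or 6.64 without probe sets that can read related transcripts, and the lactate and butyrate carrier Slc16a1 at 11.06 ± 0.072. The sodium-proton exchanger Slc9a3 read 10.80 ± 0.078, while Slc9a2 read 6.47 ± 0.38. Cftr, the chloride channel, was moderate at 9.14 ± 0.44. Of the epithelial sodium channel, Scnn1a read 8.51, Scnn1b 6.47 and Scnn1g 5.24. The sulphate carrier Slc13a1 (4.77) and the colonic proton pump Atp12a (3.77) were the dimmest.

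Metal and vitamin genes were led by storage and export: 11 of 29 measured members were high, 15 moderate and 3 near background. Besides Mt1, whose high value is lost without probe sets that can read related transcripts, and Fth1, Mt2 read 13.24 ± 0.084. Slc40a1, the iron exporter ferroportin, was at 12.99, 12.85 and 12.90, and Heph, the ferroxidase that works with it, at 11.84, 11.80 and 11.94. The apical iron importer Slc11a2 was moderate at 10.12, 9.70 and 9.99, and the iron reductase Cybrd1 at 8.35, 8.38 and 8.35. Tfrc, the target of the knockout, read 10.21, 10.78 and 9.88 and so lay across the lower edge of the high band, with control replicate 2 alone above it. Its SD of 0.46 was above that of 95% of the genes above background, and its other single-symbol probe sets averaged 6.15 and 4.67. Zinc carriers were high, with Slc39a4 at 10.68 ± 0.084, Slc39a5 at 10.50 ± 0.045 and Slc30a1 at 10.73 ± 0.14, and so was the copper importer Slc31a1 at 10.81 ± 0.099. S100g, the calcium-binding calbindin, was moderate at 9.99 ± 0.21, while the calcium channel Trpv6 (5.68) and Hephl1 (5.45) were near background.

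Bile acid handling showed a bright exit and a dim entry: 5 of 12 measured members were high, 5 moderate and 2 near background. Slc51a and Slc51b, the basolateral exporter pair, read 11.97 ± 0.18 and 11.22 ± 0.083. Abcc2 (11.68 ± 0.41) and Abcb1a (11.14 ± 0.11) pump conjugates and drugs to the lumen. Nr1h4, the bile acid receptor FXR, was high at 11.21 ± 0.068, its target Fgf15 moderate at 8.29 ± 0.10. Slc10a2, the apical ileal importer, was near background at 3.37, 3.78 and 3.35, as was the hepatic importer Slc10a1 at 5.44. Fabp6, the ileal bile acid binding protein, read 8.75, 7.33 and 7.21, highest in control replicate 1.

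Among brush border hydrolases, 14 of 25 measured members were high, 5 moderate and 6 near background. Lct, lactase, read 13.48, 13.36 and 13.50, and Alpi, intestinal alkaline phosphatase, 13.41, 13.38 and 13.45. Enpep, glutamyl aminopeptidase, was at 13.17, 13.07 and 13.32. Asah2, the ceramidase that digests milk sphingolipids, read 12.38 ± 0.19, and the meprins Mep1a and Mep1b read 12.37 ± 0.17 and 12.22 ± 0.14. Dpp4 was at 11.54 ± 0.18 and Anpep at 10.38 ± 0.16. Mgam, the maltase-glucoamylase of starch digestion, was already high at 11.11, 11.16 and 11.27. In contrast, Akp3, the duodenal alkaline phosphatase (5.14, 5.03 and 4.56), Treh, trehalase (4.53, 4.81 and 4.38), and Folh1, which trims dietary folate (2.89, 2.82 and 2.92), were near background in every array, and so was Tmprss15, enteropeptidase, at 5.13.

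Citrulline, arginine and proline synthesis was bright in its early steps: 6 of 10 measured members were high, 2 moderate and 2 near background. Aldh18a1, which starts from glutamate, read 13.02, 12.88 and 12.95, and Oat 13.36, 13.49 and 13.55. Cps1, the carbamoyl phosphate synthetase, was at 13.19, 13.26 and 13.12. Otc, which makes citrulline, was at 10.82 ± 0.081, but its probe set can read related transcripts, and without such probe sets Otc read 5.20. Ass1, which takes citrulline on to argininosuccinate, was moderate at 7.73, 6.92 and 6.89, Asl high at 10.71 ± 0.17, and the arginases Arg2 (5.16) and Arg1 (3.91) were near background. Prodh, proline dehydrogenase, read 10.39 ± 0.22.

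Gluconeogenesis, ketogenesis and fatty acid oxidation formed another bright list, in which 16 of 23 measured members were high, 7 moderate and 0 near background. Fbp1 read 12.95, 12.94 and 13.08, the muscle isozyme Fbp2 12.79 ± 0.088, Pck1 11.83, 11.59 and 11.78 and G6pc, which releases free glucose, 11.11, 11.24 and 11.53. All 3 arrays placed each of these 4 genes in the high band. Oxidation was represented by Acadl (12.50 ± 0.12), Hadhb (12.33 ± 0.18), Acat1 (11.98 ± 0.13) and Cpt1a (11.61 ± 0.11), the entry of fatty acids into mitochondria. Bdh1, the ketone body dehydrogenase, was at 12.58 ± 0.078. Pcx, pyruvate carboxylase, was moderate at 7.43, and Ppargc1a, a coactivator of these genes, the dimmest at 6.44.

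Glycolysis was mixed, as 7 of 18 measured members were high, 10 moderate and 1 near background. Ldha (12.45 ± 0.064), Pgk1 (12.34 ± 0.024), Tpi1 (11.94 ± 0.17) and Aldoa (11.17 ± 0.076) were high. Of the hexokinase family the brightest was Hkdc1 at 10.84 ± 0.11, with Hk1 at 6.90 and Hk2 at 6.80. The muscle and neuronal enolases Eno3 (6.63) and Eno2 (4.22) were the dimmest. For cholesterol and fatty acid synthesis, 3 of 20 measured members were high, 17 moderate and 0 near background. Scd2 (11.28 ± 0.060), Hmgcs1 (10.86 ± 0.12) and Elovl6 (10.26 ± 0.059) were high, followed by Acly (10.14) and Fdft1 (9.96), and Acaca (8.16) and Mvk (7.33) were lowest.

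Xenobiotic and retinoid enzymes spanned the whole range: 15 of 39 measured members were high, 14 moderate and 10 near background. Gstp1, a glutathione transferase, read 12.53 ± 0.038, Mgst1 12.39 ± 0.23, Ugt2b34 11.99 ± 0.087, Aldh1b1 11.94 ± 0.12 and Ephx2 11.92 ± 0.077. Mgst1 was near background without probe sets that can read related transcripts. Cyp3a13 (11.15, 11.35 and 11.37) was the brightest cytochrome P450. Others of the family and of the list were near background, such as Cyp2b10 (5.79), Cyp1a1 (4.66), Ces1d (4.20) and Cyp3a16 (2.48). Over the whole family 3 of 73 measured cytochromes P450 were high and 51 near background.

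Peptide hormones were divided over the bands: 5 of 27 measured members were high, 13 moderate and 9 near background. The brightest were a growth factor and the guanylins. Igf2, a fetal growth factor, read 12.91, 12.91 and 13.04, and the guanylins Guca2a and Guca2b, which act on enterocyte guanylate cyclase, 13.01, 12.57 and 13.04 and 12.59, 12.54 and 12.82. Next came Nts, neurotensin, at 11.30, 10.80 and 11.28, Gip, the incretin of the upper gut, at 10.87, 10.69 and 10.81, and Sct, secretin, at 10.46, 9.94 and 10.17. Nts and Gip were high in all 3 arrays, and Sct was in the high band in control replicate 1 alone and moderate by its mean. Pyy read 9.56, 8.86 and 9.16, Sst 8.54, 8.50 and 8.43, Cck 7.59, 8.03 and 7.53, Ghrl, ghrelin, 7.67, 7.63 and 7.21, and Gcg, the precursor of the glucagon-like peptides, 7.20, 7.52 and 7.00. All 15 values were moderate. Gast, gastrin, was near background at 5.78, 5.72 and 5.72. Retnlb (4.65) and the neuropeptide Vip (3.97) were the dimmest.

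Of the proteins that make and store hormones 0 were high: 0 of 18 measured members were high, 9 moderate and 9 near background. Chgb, a chromogranin, read 9.82, 10.09 and 9.65, Pam, which amidates peptides, 9.43 ± 0.22, and Slc18a1, the amine transporter of enterochromaffin cells, 9.17 ± 0.22. Ddc, which makes amines, was at 8.99 ± 0.22, Cpe, also in the mesothelial list, at 8.47, and Chga at 7.68 ± 0.19. Tph1, which begins serotonin synthesis in gut, was near background at 5.39, 5.68 and 5.17. The dimmest were Scn3a (3.53) and Slc18a2 (3.03).

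**Figure D4:**
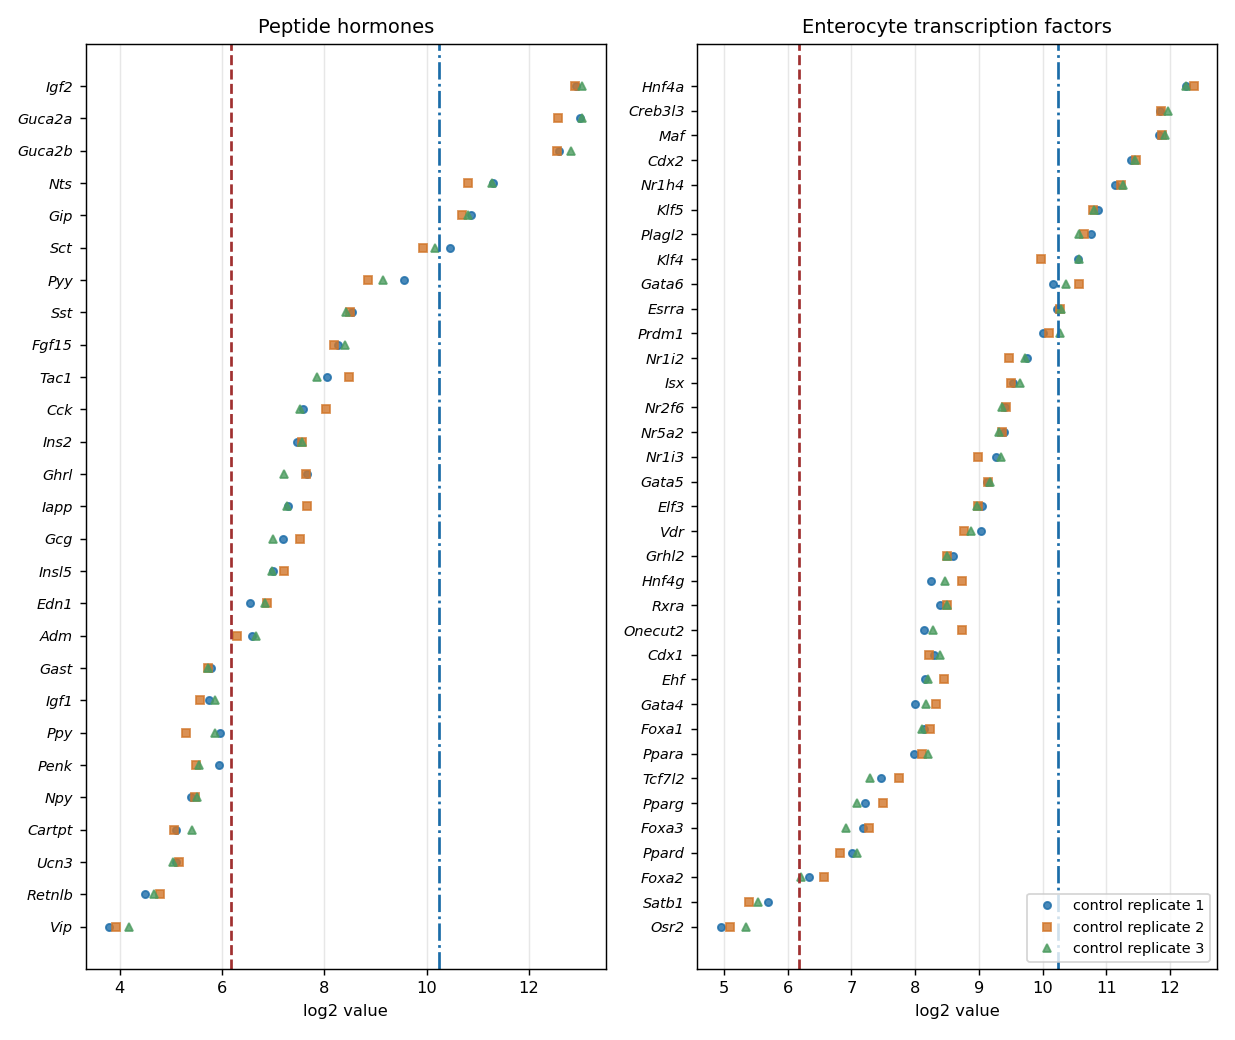
Log2 values (x axes) of each measured peptide hormone gene (left) and enterocyte transcription factor gene (right), with a symbol for each of the 3 control arrays and lines at the background limit and the lower edge of the high band. Igf2, Guca2a, Guca2b, Nts and Gip have all 3 arrays in the high band on the left, and Hnf4a, Creb3l3, Maf and Cdx2 lead on the right.

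Transcription factors of intestinal epithelium were well above background: 10 of 35 measured members were high, 23 moderate and 2 near background. Hnf4a, a nuclear receptor that drives enterocyte genes, read 12.25, 12.37 and 12.25, and Cdx2, which sets intestinal identity, 11.39, 11.47 and 11.45. Creb3l3, a regulator of lipid genes, was at 11.85, 11.86 and 11.97, and Maf, known for the suckling protein uptake program, at 11.83, 11.87 and 11.93. Plagl2, a factor needed for chylomicron handling in newborn mice, read 10.76, 10.66 and 10.58, and Prdm1, or Blimp1, which holds the suckling program until weaning, 10.01, 10.10 and 10.28. Prdm1 was in the high band in control replicate 3 alone and moderate by its mean. Klf5 was at 10.82 ± 0.041, or 8.06 without probe sets that can read related transcripts, Klf4 at 10.37 ± 0.35 and Gata6 at 10.37 ± 0.20, while Gata4, of the upper small intestine, was moderate at 8.16 ± 0.16, and so were Hnf4g at 8.49 ± 0.24 and Cdx1 at 8.30 ± 0.084. Satb1 (5.54) and Osr2 (5.13) were the 2 near background.

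None of the factors of secretory cells and progenitors was high: 0 of 25 measured members were high, 14 moderate and 11 near background. Mycn (8.46 ± 0.36), Hes1 (8.30 ± 0.30), Sox4 (7.97 ± 0.73), Spdef, of goblet cells (7.81 ± 0.16), and Myb (7.75 ± 0.52) were brightest. Atoh1, which opens the secretory fate, read 6.68, 6.47 and 6.43, and Neurog3, of endocrine progenitors, 5.56, 5.99 and 5.59. The former is just above and the latter below the background limit in all 3 arrays. Insm1 (4.94) and Lmx1a (4.59) were the dimmest. Among factors of other organs, 0 of 17 measured members were high, 2 moderate and 15 near background, and those above the limit were Pdx1, which duodenum also uses, at 7.53 ± 0.35 and Sox10, of glia, at 7.17 ± 0.0064. Barx1 (6.13), of stomach mesenchyme, was next, with Pax5 (5.95) and Nkx2-5 (5.78), and Gata3 (3.43) and Sox2 (2.52) were the dimmest.

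The markers of epithelial structure were all above background: 27 of 39 measured members were high, 12 moderate and 0 near background. After Lgals4 came Krt8 at 13.19, 13.16 and 13.02, a keratin of simple epithelia, and Cdhr5 at 13.28, 12.84 and 13.03, which links microvilli. Cldn7 (12.70 ± 0.039) and Cldn2 (12.44 ± 0.065) were the brightest claudins. Krt20, of differentiated cells, was high at 10.51 ± 0.17. Cldn15 (8.45) and Espn (7.59) were the dimmest.

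Goblet cell products were partly bright: 8 of 25 measured members were high, 11 moderate and 6 near background. Muc13, a membrane mucin that enterocytes also make, read 13.17 ± 0.075, and Tff3, the goblet trefoil peptide, 13.03, 12.27 and 12.73. Muc2, the secreted mucin, varied more, at 12.24, 10.91 and 11.68. Tspan13 (12.48 ± 0.10) and Fcgbp (11.68 ± 0.41) were high. Retnlb and B3gnt6 (5.07) were the dimmest, and Zg16, a granule lectin, was moderate at 9.87, 9.28 and 9.19.

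Paneth cell and antimicrobial genes gave 3 high members, as 3 of 21 measured members were high, 9 moderate and 9 near background. Reg3b, a lectin directed at bacteria, read 12.17, 11.94 and 11.22, Dmbt1 11.04, 12.29 and 11.29 and Reg1 10.09, 12.11 and 10.36. The last of these was higher in control replicate 2 than in both others. Reg4 was at 9.80 ± 0.36 and Itln1 at 8.30 ± 0.15. Lyz1, Paneth lysozyme, was moderate at 6.72, 7.46 and 7.09, or 4.31 without probe sets that can read related transcripts, and the defensin Defa3 was near background at 2.96, 3.19 and 3.18, as was Lcn2 at 3.59. The tuft list was largely near background: 0 of 12 measured members were high, 3 moderate and 9 near background. Its brightest members Hpgds (8.14 ± 0.18) and Ltc4s (8.11 ± 0.019) are also made by other cells, Pou2f3, the tuft factor, read 6.24 ± 0.013, and the defining markers Trpm5 (5.42) and Dclk1 (4.62) were near background, with Sucnr1 (3.25) and Rgs13 (2.67) dimmest. Avil (5.94) and Gfi1b (5.89) also lay below the limit.

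Stem cell markers were mostly moderate: 2 of 24 measured members were high, 17 moderate and 5 near background. Lgr5, the marker of crypt base stem cells, read 6.33, 7.09 and 6.49, while its relative Lgr4, found through the epithelium, was high at 10.71, 11.17 and 11.01. Olfm4 was at 9.28, 10.57 and 9.51, highest in control replicate 2. Slc12a2 (10.67 ± 0.50), Hopx (9.96 ± 0.26) and Tert (9.00 ± 0.28) followed, and Sp5 (5.29) and Tnfrsf19 (4.87), both Wnt targets, were dimmest. Proliferation genes were moderate with few exceptions: 1 of 27 measured members were high, 24 moderate and 2 near background. Pcna, the replication clamp, read 10.69 ± 0.33, Ccnd2 9.77 ± 0.31, Mcm2 9.58 ± 0.12, Mcm5 9.06 ± 0.27, Mcm6 8.94 ± 0.39 and Mki67 8.91, 9.21 and 8.34. Kif20a (5.59) and Tyms (4.22) were near background.

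Genes of fetal and regenerating epithelium were mostly moderate, as 2 of 18 measured members were high, 12 moderate and 4 near background. After Igf2, Anxa2 was at 12.32 ± 0.11, which was near background without probe sets that can read related transcripts. Krt7 (9.92 ± 0.075), Cpm (9.28 ± 0.14) and Anxa5 (9.01 ± 0.016) followed. Clu, clusterin, read 8.42 ± 0.077, and Anxa10 (5.43) and Ankrd1 (3.75) were near background.

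Markers of non-epithelial cells were moderate or near background, with few high exceptions. For fibroblasts, 0 of 18 measured members were high, 12 moderate and 6 near background, with Col3a1 at 8.42, 9.56 and 9.07, Col1a2 at 8.36 ± 0.36, Sparc at 8.30 ± 0.71, Col6a2 at 8.29 ± 0.35, Pdgfra at 7.70 ± 0.79, Gli1 at 4.79 and Twist1 at 3.77. The list median was 6.75, 7.24 and 7.29 in control replicates 1, 2 and 3. For endothelium, 0 of 14 measured members were high, 9 moderate and 5 near background, with Egfl7 at 8.26 ± 0.17 and Plvap at 7.89 ± 0.73 brightest, then Kdr (7.52), Esam (7.36) and Eng (7.34), and the defining Pecam1 at 5.20 and Tie1 at 5.18 dimmest. For smooth muscle, 1 of 11 measured members were high, 3 moderate and 7 near background. Mylk, a myosin kinase also found in other cells, was high at 11.08 ± 0.18, Des read 7.59 ± 0.052, Acta2 7.61 ± 0.10, Tagln read 6.22, and Lmod1 (5.87), Myh11 (5.24), Smtn (5.06) and Cnn1 (4.49) were near background. Without probe sets that can read related transcripts Acta2 read 4.08 and Col3a1 6.03, both near background, and by the mean of its probe sets Acta2 read 4.94. The part that such cells play in the levels above was not tested.

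Leukocyte markers were near background for the most part, as 1 of 20 measured members were high, 7 moderate and 12 near background. Csf1r, the receptor of macrophage growth factor, stood apart at 13.36, 13.02 and 13.21, and its other probe sets averaged 12.10 and 10.97, all high. The common leukocyte antigen Ptprc was near background at 4.98, 5.73 and 6.01, as was Itgam at 3.33, 3.46 and 3.77, while Lcp1 read 10.16 ± 0.33 and Adgre1 6.72 ± 0.20. Cd3e (6.72) and Lyz2 (6.60) were just above the limit, and Cd3g (3.55) was among the dimmest. For erythroid cells, 0 of 12 measured members were high, 2 moderate and 10 near background, and Hbb-b2 (7.66 ± 0.16) and Klf1 (6.26 ± 0.068) were the 2 above the limit, while Alas2 (5.92), Hba-x (5.53), Epb42 (5.48), Hba-a1 (4.49) and Rhag (2.68) were below it. The erythroid list names 18 symbols, and probe sets with several symbols were left out. Globin transcripts read only by such probe sets are thus not covered. For neurons and glia, 0 of 13 measured members were high, 7 moderate and 6 near background, led by Ret (8.15 ± 0.13) and Sox10, then S100b (6.97), Ednrb (6.58) and Gfap (6.28), with Snap25 (3.97) and Uchl1 (3.94) dimmest. For mesothelium, 0 of 9 measured members were high, 4 moderate and 5 near background, with Upk3b at 8.01 ± 0.22 Upk1b at 6.69 ± 0.11 and Msln, mesothelin, at 6.68 ± 0.084 above the limit beside Cpe, Krt14 at 5.27, the defining Wt1 at 5.03, and Muc16 (4.48) and Gpm6a (4.19) dimmest.

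Neighbouring organs gave mixed signals. Of the liver list, 2 of 10 measured members were high, 3 moderate and 5 near background. Ttr was joined by Afp, alpha-fetoprotein, at 13.26, 12.86 and 13.12, while albumin (Alb) was near background at 5.70, 5.14 and 5.53, and so were Ahsg (5.50) and Fgg (5.24). Fga read 8.48 ± 0.32 and Fgb 7.58 ± 0.35, and Apoh 6.26 ± 0.16. Of the stomach list, 4 of 15 measured members were high, 4 moderate and 7 near background. Tff2, a trefoil peptide of gastric neck cells, read 10.92, 12.69 and 12.36, Gkn3 9.96, 11.62 and 11.30, Cym, the milk-clotting chymosin, 9.79, 10.99 and 10.32, and Tff1 9.87, 10.70 and 10.53. All 4 were lowest in control replicate 1. The defining Atp4a, of the acid pump, and Cblif, intrinsic factor, were near background at 5.33 and 4.59, as were Muc5ac at 6.16 and Chia1 at 5.18, while the pepsinogen Pga5 read 7.91 ± 0.096. For pancreas, 0 of 9 measured members were high, 6 moderate and 3 near background, with Ctrb1 at 8.87 ± 0.062 and Cela1 at 8.51 ± 0.14 brightest, then Cela3b (7.68), Clps (7.58) and Prss2 (6.70), and Cpa1 (5.65) and Cela2a (5.59) dimmest. Whether tissue of these organs was in the preparation was not tested.

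The lists of regional markers were each divided over all 3 bands. Of the list for proximal small intestine, 3 of 12 measured members were high, 8 moderate and 1 near background, led by Apoa4, Lct, Slc40a1 and Slc11a2, with Onecut2 at 8.39 ± 0.31, and ended by Bco1 (6.47) and Adh6a (4.44). Of the ileal list, 3 of 8 measured members were high, 2 moderate and 3 near background, with Cubn and the Slc51 pair high and Gm128 (4.21) and Slc10a2 near background. Of the proximal colon list, 3 of 11 measured members were high, 2 moderate and 6 near background. Slc26a3, Mettl7b (10.77 ± 0.22) and Cldn8 (10.54 ± 0.29) were high and Aqp8 moderate at 8.68 ± 0.27, Muc1 read 6.39, while Car1 (5.53, 5.27 and 5.22), a colonic carbonic anhydrase, Car4 (5.19) and Hoxa11 (4.63) were near background.

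Few genes varied widely among control arrays. Of 10933 genes above background, 122 had an SD over 0.5. The most variable was Fabp4, the fatty acid binding protein of fat and vessels, at 6.11, 7.73 and 8.31, then Reg1. The mean of Fabp4 was 5.06, near background, without probe sets that can read related transcripts. Rgs5, of pericytes, read 5.68, 6.52 and 7.65, and Aplnr, the apelin receptor of endothelium, 7.59, 8.30 and 9.29. Rgs5, Fabp4 and Aplnr were each lowest in control replicate 1, as were the medians of the fibroblast list and of the endothelial list (6.36, 6.64 and 7.00), and the part of such cells in this spread was not tested. Npnt, nephronectin, read 5.70, 7.13 and 7.51, the potassium channel subunit Kcne3 6.39, 8.20 and 7.41, and Adamdec1, a protease of gut stroma, 8.81, 9.40 and 10.46. Tff2, Gkn3 and Fabp6 complete the 10, of which 9 were lowest in control replicate 1 and Fabp6 was highest there. The median SD of the 25 brightest genes outside the ribosomal proteins was 0.029, against 0.098 for all high genes. Whether the top of the array's scale narrows such spread was not tested.

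**Figure D5:**
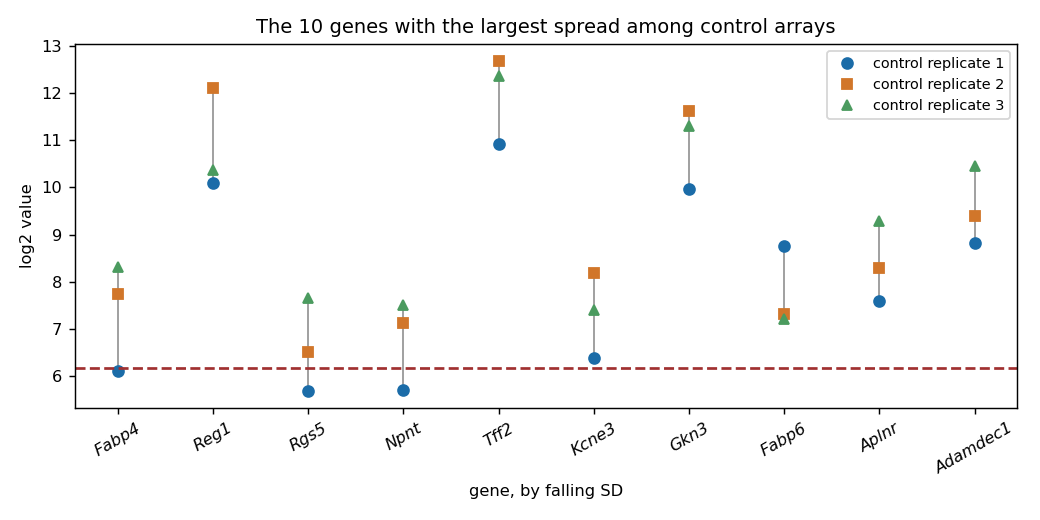
Log2 values (y axis) in each of the 3 control arrays for the 10 genes above background with the largest SD (x axis, by falling SD), with a line at the background limit. Control replicate 1 is lowest for 9 of the 10 genes and highest for Fabp6.

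Finally, several lists were followed into the other genotypes, with limma's moderated test on all 9 arrays and Benjamini-Hochberg adjustment over 18193 genes at 0.05. In knockout epithelium 14% of genes passed (5.08% higher, 8.93% lower). Calls differed by band. Of 1820 high genes 76 were higher and 363 lower, of 9113 moderate genes 509 and 1181, and of 7260 genes near background 339 and 80. These bands were set on the control arrays that enter this contrast. The lists below differ in level, so their counts stand beside these counts by band. The lists were also chosen with earlier results of these data known, so their counts are a description and not a test. The count of called genes was 2548, and it was 1112, 1223 and 938 when control replicate 1, 2 or 3 was left out. Leaving out knockout replicate 1 gave 1636 calls, and leaving out knockout replicate 3 gave 4917. Of the 25 brightest genes, 0 were higher and 2 lower, Hadh with a log2 change of -0.47 ± 0.090 (SE, adjusted p = 0.0124) and Mamdc4 with -1.51 ± 0.15 (adjusted p = 9.38e-04). The knockout reading of Mamdc4 was 12.04, 12.07 and 12.43, against 13.83, 13.51 and 13.73 in control. The 25 brightest were chosen on the control arrays that enter this contrast, so nothing is read from their count.

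In the suckling list 10 of 25 members were lower in knockout and 0 higher. Pigr, the carrier of secretory immunoglobulin, fell from 9.93, 10.47 and 10.01 to 7.02, 6.73 and 7.30 (adjusted p = 0.00206). Prdm1 changed by -1.72 ± 0.28 (adjusted p = 0.00619) and Ctsz by -0.86 ± 0.14 (adjusted p = 0.00626). Medians of the list were 12.38, 12.01 and 12.30 in control and 11.57, 11.35 and 12.22 in knockout arrays, so knockout replicate 3 lay within the control range. The count was 19 without knockout replicate 3, 3 without control replicate 1, 5 without control replicate 2, 3 without control replicate 3, and 6 and 5 when knockout replicates 1 and 2 were left out.

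In the citrulline list 8 of 10 members were lower and 1 higher. Asl fell from 10.89, 10.55 and 10.71 to 8.90, 8.86 and 9.43 (adjusted p = 0.00126), Prodh from 10.48, 10.14 and 10.54 to 7.70, 8.06 and 8.63 (adjusted p = 0.00203) and Aldh18a1 from 13.02, 12.88 and 12.95 to 11.18, 11.38 and 11.89 (adjusted p = 0.00553). These 3 genes were named for the smallest p of the list, so nothing is read from the separation of their arrays. The list median was 10.62, 10.34 and 10.63 in control and 8.30, 8.46 and 9.03 in knockout, lower in every knockout array. The count of lower members was 5 without control replicate 3.

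Of the 34 lipid genes 3 were higher and 2 lower, a share near the 14% of all genes. Most of this list is in the high band, where 76 of 1820 genes were higher and 363 lower. Pnliprp2, a lipase of the milk-fed gut and pancreas, rose by 3.59 ± 0.23 (adjusted p = 2.01e-04) and Abca1 by 3.05 ± 0.50 (adjusted p = 0.00666), while Mogat2 changed by -0.74 ± 0.17 (adjusted p = 0.0252, lost in 5 of 9 fits that each left out 1 array). Lower calls numbered 10 when knockout replicate 3 was left out, 0 when knockout replicate 1 or 2 or any 1 control array was left out, and 1 when any 1 rescue array was left out. Of the enterocyte transcription factors 11 of 35 were lower and 3 higher. Vdr, the vitamin D receptor, changed by -1.47 ± 0.13 (adjusted p = 6.57e-04), Plagl2 by -1.40 ± 0.17 (adjusted p = 0.00206) and Cdx1 by -1.54 ± 0.19 (adjusted p = 0.00223). Leaving out control replicate 1, 2 or 3 gave 6 lower calls each, and leaving out control replicate 3 gave 1 higher call. Of the epithelial structure list, with 27 of 39 members in the high band, 17 were higher and 1 lower. Without control replicate 3 these counts were 9 and 0. Xenobiotic and retinoid enzymes had 13 of 39 higher and 5 lower, and brush border hydrolases 2 of 25 higher and 2 lower. The list of gluconeogenesis, ketogenesis and fatty acid oxidation had 2 of 23 higher and 8 lower.

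The fetal list had 14 of 18 members higher and 0 lower, led by Anxa1 at 2.97 ± 0.23 (adjusted p = 3.03e-04), Anxa10 at 5.85 ± 0.52 (adjusted p = 6.39e-04) and Clu at 2.71 ± 0.25 (adjusted p = 6.57e-04). It had 9 higher members without control replicate 3. Peptide hormones had 9 of 27 higher and 0 lower, led by Ghrl at 1.69 ± 0.19 (adjusted p = 0.0015), Sst at 1.21 ± 0.17 (adjusted p = 0.00374) and Gip at 0.85 ± 0.13 (adjusted p = 0.00556). Without knockout replicate 3, 16 hormone genes were higher and 1 lower. Higher calls numbered 5 without control replicate 2 and 4 without control replicate 3. The fibroblast list median was 10.80, 10.56 and 7.33 in knockout arrays against 6.75, 7.24 and 7.29 in control, with 4 of 18 members higher. Of the mesothelial list 4 of 9 were higher, with medians of 6.69, 7.78 and 6.92 against 5.39, 5.42 and 5.07. Of the endothelial list 3 of 14 were higher, with medians of 8.01, 7.62 and 7.38 against 6.36, 6.64 and 7.00. Of the smooth muscle list 0 of 11 passed, with medians of 8.47, 8.11 and 5.63 against 5.45, 5.48 and 5.93. The mesothelial list shares Msln with the fetal list and Cpe with the list of proteins that make and store hormones. Cpe, at 3.74 ± 0.25 (adjusted p = 2.30e-04), is among the mesothelial members called higher. The part of these cells in the changes was not tested. Of the bile acid list 2 of 12 were higher, Fabp6 by 3.73 ± 0.68 (adjusted p = 0.00955) and Slc10a2 by 2.40 ± 0.26 (adjusted p = 0.0015). Nr1h4 was the 1 lower, at -1.05 ± 0.16 (adjusted p = 0.00501). Tff2, of the stomach list, read 12.39, 13.51 and 7.75 in knockout arrays and 6.99, 13.30 and 13.28 in rescue arrays. Whether the arrays differ in the gut regions or organs they hold was not tested.

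In rescue epithelium 0.143% of genes (26) passed against control, 0.0605% higher and 0.0824% lower. Xist was lower, at 6.45, 6.83 and 6.74 against 12.31, 12.14 and 12.10 (adjusted p = 7.11e-06), and Eif2s3y higher, at 9.36, 9.70 and 9.48 against 2.75, 2.88 and 2.69 (adjusted p = 2.55e-07). Uty, also Y-linked, was higher, at 6.20, 6.48 and 6.64 against 4.35, 4.77 and 4.80 (adjusted p = 0.0296), while the Y-linked Kdm5d was near background throughout, at 4.36, 4.67 and 4.42 against 4.36, 4.16 and 4.36 (adjusted p = 0.957). The arrays of both groups thus differ in 3 of these 4 sex-linked transcripts as well as in genotype, and these cannot be told apart here. Knockout arrays read 12.64, 12.75 and 12.02 for Xist, all in the high band as in control. Among list members, Zg16 at 2.82 ± 0.32 (adjusted p = 0.0296), Clca1 at 1.56 ± 0.21 (adjusted p = 0.0384), Cpe at 1.76 ± 0.25 (adjusted p = 0.0489) and Cyp2c65 at 2.11 ± 0.26 (adjusted p = 0.0353) were higher and Vdr at -1.03 ± 0.13 (adjusted p = 0.0384) lower. Each of these 5 genes lost its call in 6 to 8 of the 9 fits that left out 1 array. The count over all genes was 3, 2 and 2 without control replicates 1, 2 and 3, and 12, 2 and 16 without rescue replicates 1, 2 and 3. It was 11 when knockout replicate 2 was left out and 135 when knockout replicate 3 was. Both comparisons share the control arrays, so changes in rescue are not independent of those in knockout.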

How the data were processed

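Total RNA of 9 samples was read on Affymetrix mouse arrays. The authors deposited log2 values, 1 per probe set and array; RMA and Partek 6.5 are named per the submitters' processing notes, and what each tool did is not given in the sources used here. Column medians lay between 5.93 and 6.00, and 0 of 36 pairs of arrays were identical. Values were used with no further scaling. Of 45101 probe sets, 34958 carried 1 symbol in the platform annotation, 932 several and 9211 none. Of 18194 Entrez identifiers, 18032 matched a current gene. Groups came from sample titles. Levels and bands used the 3 control arrays, with pandas 2.3.3. Knockout and rescue were each compared with control in limma 3.58.1 (R 4.3.3), with lmFit and eBayes on 3 group means over 9 arrays, two-sided, adjusted by Benjamini and Hochberg at a threshold of 0.05. The test was tried on simulated data. The p-values measure only the spread between these arrays.

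The members and the gene lists were chosen with earlier results of these data known. Named genes are the 25 brightest outside ribosomal proteins, list members (always the 5 brightest and 2 dimmest of a list), the 10 most variable genes above background and, between genotypes, up to 3 members with the smallest p of a list; the called list members of the rescue comparison, genes of sex-linked transcripts and Mamdc4 and Hadh were named after their values were seen. Alternatives covered the probe set rule, probe set classes, array centring, a filter on dim genes, the groups fitted, a replicate block and leaving out each array. Promoters came from RefSeq (GRCm38.p6).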

Additional observations from a re-analysis of the deposited data

How the results depend on the processing

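The count of genes near background (7260) ranged from 5981 to 9812 over its alternatives, and the count of high list members (208) from 147 to 267. Using the mean of a gene's probe sets moved 120 of 718 list members (16.7%) to another band, and leaving out probe sets with the suffixes _s_at, _x_at and _a_at moved 53 of 629 (8.43%), of which 4 went from high to near background (Anxa2, Ctsl, Mgst1 and Otc). Tmsb10 and Tpt1, among the 25 brightest genes and in no list, did so as well. Leaving out control replicate 1, 2 or 3 moved 16, 23 and 7. Of the 25 brightest genes 16 were kept with the mean of probe sets and 11 without those suffixes. Of 1250 high genes with several probe sets, 470 had another near background.

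The 2548 calls in knockout became 938 to 4917 when 1 array was left out, and 1704 when only the 2 groups compared were fitted. The 26 calls in rescue became 2 to 135 when 1 array was left out, 144 when only the 2 groups compared were fitted and 16 without the suffixed probe sets. Deviations from the group means were correlated between arrays of different groups. Same-numbered arrays gave -0.21 to 0.40 and differently numbered arrays -0.30 to 0.37. With 3 arrays per group this cannot show whether the numbers are a pairing. With a replicate block the counts were 2437 and 25. Of the 26 calls in rescue, 14 were shared with the replicate block, and Vdr and Cpe were not called there. The cause of these shifts was not tested. The number of arrays and the brightness of probes over background limit all levels.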

Other observations

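Gene families grouped by symbol showed a further division in control epithelium; they were chosen after levels were known, and no test was made. Of 57 measured genes with symbols of the ribosomal protein pattern (Rpl or Rps) 37 were high. Of 96 genes with symbols of the respiratory chain and ATP synthase 73 were high, led by Cox6a1. These symbol patterns can also take in other genes, such as Rps6k kinases and Ndufaf assembly factors, so the counts are not of subunits alone. Solute carriers were spread over all levels, with 58 of 347 high and 116 near background. Of 36 Hox genes 0 were high and 27 were near background, the brightest being Hoxa5 at 6.90, and of 21 Sox genes 0 were high and 13 near background. Of 336 Zfp genes 3 were high, 191 moderate and 142 near background, and of 38 Fox genes 1 was high, 19 moderate and 18 near background. Of 48 keratins 4 were high and 30 near background, and of 24 claudins 4 were high. Il18, a cytokine of gut epithelium, was at 10.79 and the only one of 31 interleukin genes in the high band, with 24 near background. Of 42 collagens 0 were high, and Col3a1 was the brightest. Of 45 ATP-binding cassette transporters 7 were high, led by Abcg2, an exporter of drugs and urate, at 11.89.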
